A study of Mus musculus with 6 samples.

Results

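The adrenergic and muscarinic receptors of the heart, the G protein-coupled receptor kinases (GRKs) and the β-arrestins were examined in mouse ventricles overexpressing the nuclear receptor COUP-TFII. The group was chosen by gene name and comprised 9 genes, namely the receptors *Adrb1*, *Adrb3*, *Adra1a*, *Adra1b* and *Chrm2*, the kinases *Grk2* and *Grk5*, and the arrestins *Arrb1* and *Arrb2*. A gene was measured where at least 1 probe set of the array was annotated to it and to no other gene. This held for 4 of the 9 genes, *Adra1b*, *Grk5*, *Arrb1* and *Arrb2*, with 6 probe sets in all, out of 18193 genes and 34945 probe sets of 1 gene. *Adrb1*, *Adrb3*, *Adra1a*, *Chrm2* and *Grk2* were not analysed here, so no statement below covers the β-adrenergic receptors, the main muscarinic receptor of the heart or the most studied cardiac GRK.

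The series consists of 6 Affymetrix mouse expression arrays, each of the whole ventricles of 1 mouse. The OE group held 3 Myh6-MerCreMer; CAG-S-COUP-TFII mice and the CTRL group 3 Myh6-MerCreMer mice without the overexpression allele. All 6 mice were of a mixed 129SvEv/C57Bl6/J strain, and all were given tamoxifen for 3 days at 40 mg/kg/day from the age of 2 months. Ventricles were taken on day 16 after the first dose, and the age given for the arrays is 2.5 months. The *Myh6* promoter restricts the inducible Cre to cardiomyocytes, and both groups carried the Cre and received the drug. The deposited values are on a log2 scale relative to each probe set's median over the 6 arrays. A value of 0 is therefore the middle of the 6 arrays and not an absence of transcript, levels of different genes cannot be compared, and whether the ventricular markers were expressed at a high level could not be checked.

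These genes encode the start and the brake of autonomic signalling in the heart. Noradrenaline from sympathetic nerves acts on β-adrenergic receptors, which couple to Gs and raise cAMP, and on α1-adrenergic receptors, which couple to Gq and activate phospholipase C. Acetylcholine from the vagus acts on muscarinic receptors that couple to Gi. A GRK phosphorylates the occupied receptor, and a β-arrestin then binds it, uncouples it from its G protein and leads it into clathrin-coated pits. In failing hearts, raised GRK activity and loss of β-adrenergic responsiveness are well known.

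The label check came first. *Nr2f2*, which encodes COUP-TFII, was higher on probe set 1416159_at in OE, at 1.74 ± 0.16, against -1.75 ± 0.21 in CTRL (SD, n = 3 each), a log2 change of 3.49 with an adjusted p of 3.1e-05 (limma). Its 5 other probe sets changed by -0.34 to -0.13 and did not pass the threshold. The root mean square distance over genes was 0.375 to 0.427 between OE and CTRL arrays, 0.194 to 0.215 among OE arrays and 0.208 to 0.233 among CTRL arrays, so no array stood apart from its group. Across all 18193 genes, 26.7% passed an adjusted p of 0.05, 14.9% higher and 11.8% lower in OE, and in 45.6% the 3 OE arrays lay wholly above or wholly below the 3 CTRL arrays. The median change of all genes was -0.03. When each array was instead centred on its 44 measured ribosomal protein genes, this median was -0.26. The split became 7.04% higher and 51.7% lower. Before this centring, 17 of these 44 genes were themselves called higher and 1 lower, with a median log2 change of 0.20. Their mean was 0.08 to 0.15 on the OE arrays and -0.15 to -0.08 on the CTRL arrays. Centring on them therefore lowers the log2 change of every gene by the same amount. Calls gained or lost under it follow from that shift, and small changes below are to be read against the chosen scaling.

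Of the 4 measured genes, *Grk5* and *Arrb2* were higher in OE ventricles, *Adra1b* was lower and *Arrb1* did not pass the test. By limma, *Adra1b* thus differed from CTRL in the opposite direction to *Grk5* and *Arrb2*, and the *Adra1b* call rested on single arrays. With 3 of 4 genes called against 26.7% of all genes, and with groups that did not overlap in 4 of 4 against 45.6%, the number of genes is too small to say anything about the group as a whole. Under one-way analysis of variance on the gene means, 1 of the 4 was called higher and none lower, against 7.9% and 6.18% of all genes. The methods of the study name this test, but for array entities that had first been filtered on expression. Run on the 6 probe sets without such a filter, it called none, with adjusted p of 0.0526 to 0.198. In whole ventricles, fewer cells of a type and less RNA per cell cannot be told apart.

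**Figure D1:**
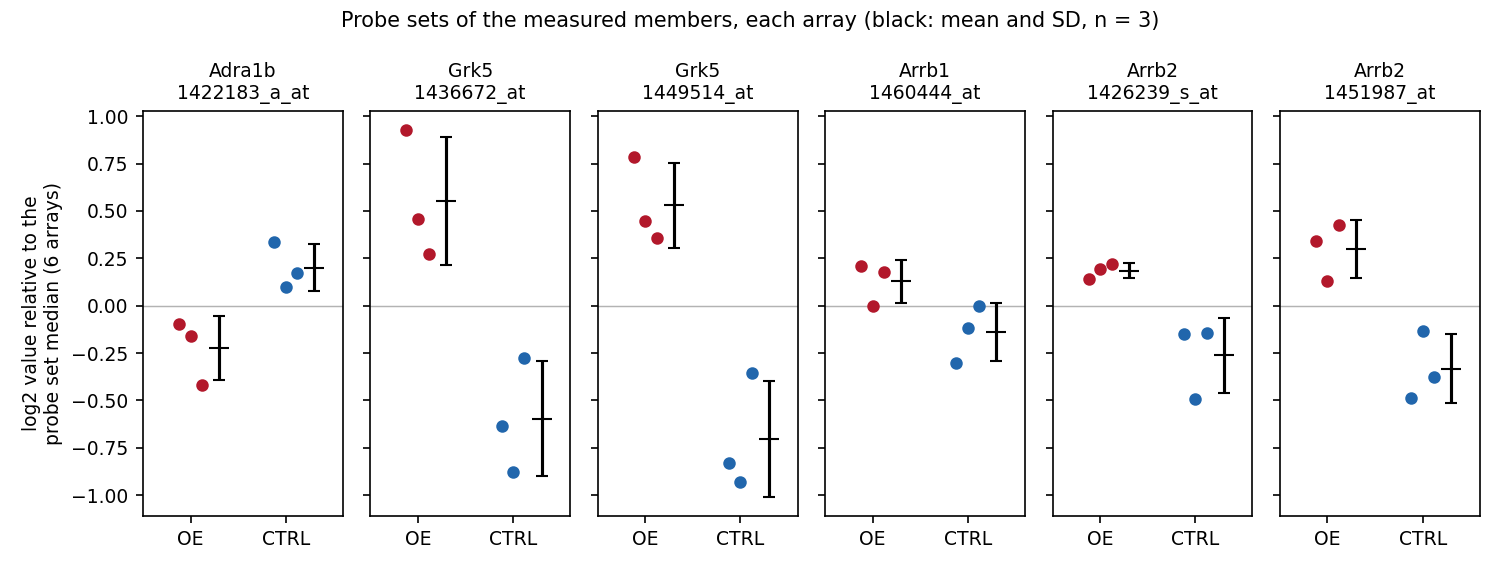
Values of the 6 probe sets of *Adra1b*, *Grk5*, *Arrb1* and *Arrb2* on each array, as log2 relative to the probe set's median over 6 arrays, with OE points in red left of CTRL points in blue and the mean and SD in black (n = 3 each). OE and CTRL points do not overlap in any panel, and for *Arrb1* the lowest OE and the highest CTRL value nearly touch.

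*Adra1b* encodes the α1B-adrenergic receptor, which couples to Gq. Its probe set 1422183_a_at gave -0.10, -0.16 and -0.42 on the OE arrays, against 0.34, 0.10 and 0.17 on the CTRL arrays. All OE arrays lay below all CTRL arrays, with a gap of 0.19 between the highest OE and the lowest CTRL array. The mean was -0.22 ± 0.17 in OE and 0.20 ± 0.12 in CTRL (SD, n = 3 each), a log2 change of -0.43 with an SE of 0.11 and a 95% interval of -0.67 to -0.18. This is 1.34-fold lower, with an adjusted p of 0.0221 (limma, two-sided, over all genes), and 15.0% of all genes changed by more. The call rested on single arrays: without OE replicate 3 the log2 change was -0.33 with an adjusted p of 0.0536, and without CTRL replicate 1 it was -0.36 with an adjusted p of 0.0700. Under one-way analysis of variance the adjusted p was 0.0934, while centring on ribosomal protein genes gave a log2 change of -0.65 with an adjusted p of 0.00274, which were the largest and smallest adjusted p among the 13 alternatives.

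COUP-TFII binds DNA at repeats of the nuclear receptor half-site AGGTCA, and cAMP-regulated promoters often carry the element TGACGTCA. The available RefSeq windows around the annotated starts of the 4 measured genes were therefore searched for both on both strands. The core GGTCA, which is contained in AGGTCA, was searched too. Windows ran from 250 bases before to 50 bases after a start in GRCm38.p6, and 3 windows were found for 2 of the 4 measured genes, 2 of them for *Adra1b*. No window was available for *Arrb1* or *Arrb2*. The first *Adra1b* window, at chr11:43836440-43836739 on the minus strand, had 71.3% GC and none of the 3 motifs. The second, at chr11:43901188-43901487 on the minus strand, had 42.3% GC and a single GGTCA, in capitals below, that begins at position -178 relative to the start. The *Grk5* window, at chr19:60889499-60889798 on the plus strand, had 54.3% GC and none of the motifs.
*Adra1b*, first window: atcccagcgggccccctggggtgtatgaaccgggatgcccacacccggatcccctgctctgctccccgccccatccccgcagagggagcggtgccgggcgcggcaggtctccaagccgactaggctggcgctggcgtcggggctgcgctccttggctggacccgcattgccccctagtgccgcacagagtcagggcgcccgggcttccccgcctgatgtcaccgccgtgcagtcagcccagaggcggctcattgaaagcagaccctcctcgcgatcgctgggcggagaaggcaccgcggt
*Adra1b*, second window: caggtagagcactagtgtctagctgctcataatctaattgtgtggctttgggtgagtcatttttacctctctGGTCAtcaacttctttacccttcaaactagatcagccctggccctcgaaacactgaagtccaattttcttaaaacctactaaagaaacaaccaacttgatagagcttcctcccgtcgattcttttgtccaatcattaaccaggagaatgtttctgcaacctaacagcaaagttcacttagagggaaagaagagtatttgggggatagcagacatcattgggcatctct
*Grk5*: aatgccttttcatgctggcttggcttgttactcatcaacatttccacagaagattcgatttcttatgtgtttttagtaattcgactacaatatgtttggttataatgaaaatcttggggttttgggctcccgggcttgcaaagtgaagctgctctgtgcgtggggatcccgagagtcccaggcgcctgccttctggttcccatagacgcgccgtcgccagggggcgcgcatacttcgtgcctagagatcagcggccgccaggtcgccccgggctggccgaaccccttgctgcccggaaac
Among 32851 such windows of the table, 16.3% held AGGTCA, 40.5% held GGTCA and 1.79% held TGACGTCA. A match is only a description of these letters, and binding of COUP-TFII was not measured on these arrays.

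*Grk5* encodes a GRK that is abundant in the heart and is anchored to the membrane without help from Gβγ. The mean of its probe sets was 0.86, 0.45 and 0.32 on the OE arrays, against -0.73, -0.90 and -0.32 on the CTRL arrays. Every OE array lay above every CTRL array with a gap of 0.63, and CTRL replicate 3 was the closest to OE. The mean was 0.54 ± 0.28 in OE and -0.65 ± 0.30 in CTRL (SD, n = 3 each), a log2 change of 1.19 with an SE of 0.18 and a 95% interval of 0.77 to 1.61. *Grk5* was thus 2.29-fold higher with an adjusted p of 0.00335 (limma), and only 1.47% of all genes changed by more.

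Both *Grk5* probe sets showed the change. Probe set 1436672_at gave 0.93, 0.46 and 0.27 in OE, against -0.64, -0.88 and -0.27 in CTRL, which was 2.22-fold higher with an adjusted p of 0.00598 over all probe sets. Probe set 1449514_at gave 0.78, 0.45 and 0.36 in OE, against -0.83, -0.93 and -0.36 in CTRL, which was 2.35-fold higher with an adjusted p of 0.00235. The order of the 6 arrays was the same on both, apart from the distance between them. Over all probe sets, 21% were called, 11.4% higher and 9.58% lower, and the groups did not overlap in 40.7%. The *Grk5* call was lost only under one-way analysis of variance, with an adjusted p of 0.0514 and the same log2 change; its adjusted p over 13 alternatives ranged from 0.00193 to 0.0514 and its log2 change from 0.97, when centred on ribosomal protein genes, to 1.36, without CTRL replicate 3.

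The β-arrestins are the 2 widely expressed arrestins that bind phosphorylated receptors. *Arrb2*, β-arrestin 2, had mean values of 0.24, 0.16 and 0.32 on the OE arrays, against -0.32, -0.31 and -0.26 on the CTRL arrays. As the mean of 2 probe sets, its replicates lay closer together than those of the other 3 measured genes. The values were 0.24 ± 0.08 in OE and -0.30 ± 0.03 in CTRL (SD, n = 3 each). On the single probe sets the CTRL SD was larger, at 0.20 for 1426239_s_at and 0.18 for 1451987_at. CTRL replicate 2 was the lowest CTRL array on 1426239_s_at (-0.49) and the highest on 1451987_at (-0.13). The deviations thus partly cancelled in the mean, and the small SD and SE of the gene value rest in part on this. The log2 change was 0.54 with an SE of 0.07 and a 95% interval of 0.38 to 0.70, which was 1.45-fold higher with an adjusted p of 0.00169 (limma), and 9.65% of all genes changed by more. The gene value of *Arrb2* passed the threshold under each of 13 alternatives, with adjusted p of 0.00153 to 0.0185, though centring on ribosomal protein genes reduced the log2 change to 0.32. Neither probe set alone passed under one-way analysis of variance, with adjusted p of 0.0989 for 1426239_s_at and 0.0720 for 1451987_at.

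The 2 probe sets of *Arrb2* moved the same way with unequal certainty. Probe set 1451987_at gave 0.34, 0.13 and 0.43 in OE, against -0.49, -0.13 and -0.38 in CTRL, a log2 change of 0.63 with an SE of 0.12 and an adjusted p of 0.00919. Probe set 1426239_s_at, whose suffix marks probes that can match more than 1 transcript, gave 0.14, 0.19 and 0.22 in OE, against -0.15, -0.49 and -0.14 in CTRL. Its log2 change was 0.45 with an SE of 0.11 and an adjusted p of 0.0247. Leaving out OE replicate 1, 2 or 3 put this probe set at an adjusted p of 0.0623, 0.0682 and 0.0719.

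*Arrb1*, β-arrestin 1, was measured by probe set 1460444_at at 0.21, 0.000881 and 0.18 on the OE arrays, against -0.30, -0.12 and -0.00088 on the CTRL arrays. OE replicate 2 and CTRL replicate 3 were only 0.00176 apart, so the groups were barely separate. The mean was 0.13 ± 0.11 in OE and -0.14 ± 0.15 in CTRL (SD, n = 3 each). The log2 change of 0.27, with an SE of 0.10 and a 95% interval of 0.04 to 0.50, had an adjusted p of 0.0803 (limma) and was not called, nor was it under any of 13 alternatives, whose adjusted p ranged from 0.0521 to 0.702. Centred on ribosomal protein genes, the log2 change was only 0.05.

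**Figure D2:**
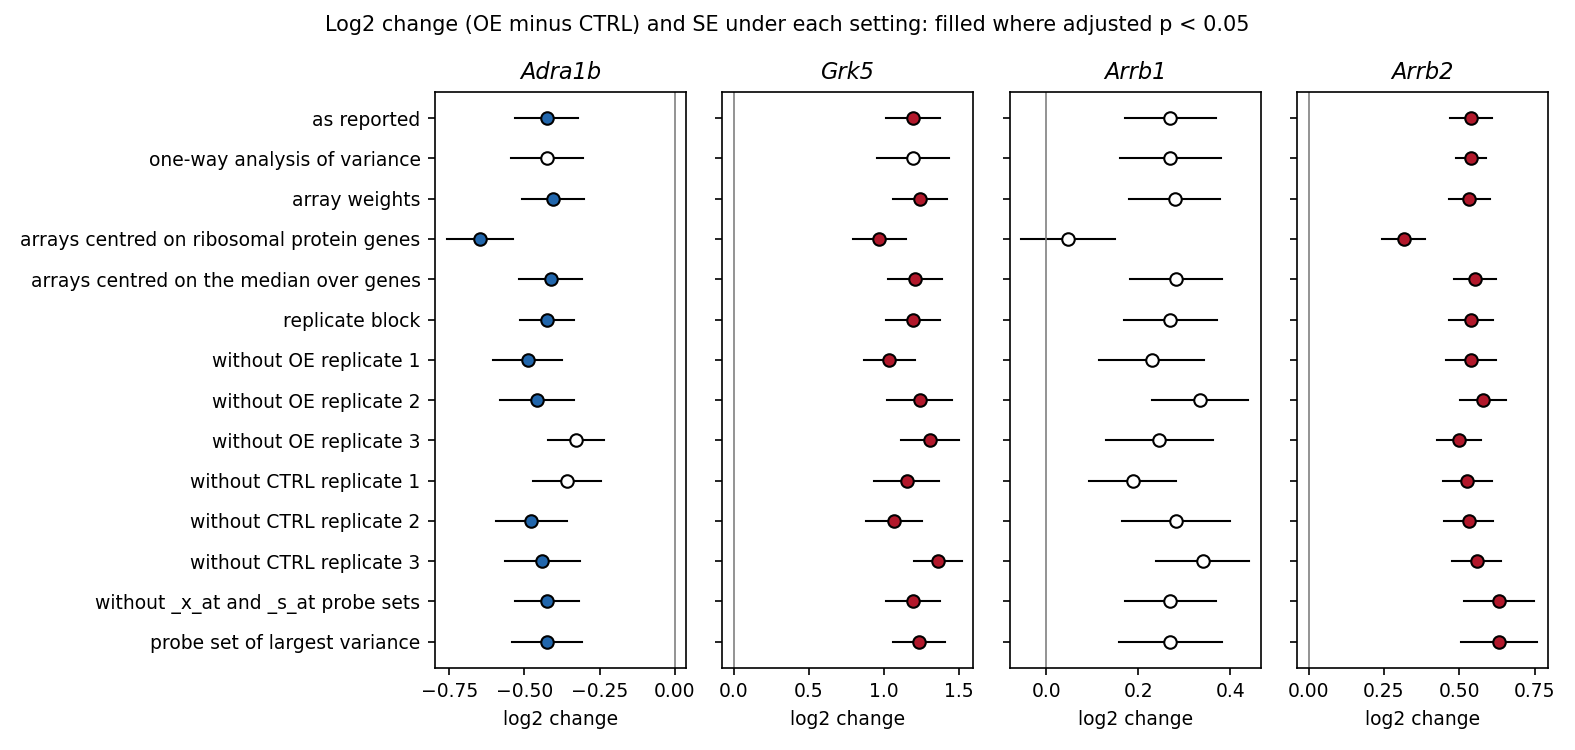
Log2 change, OE minus CTRL, with its SE for *Adra1b*, *Grk5*, *Arrb1* and *Arrb2* under the reported setting and each of 13 alternatives, with filled points at an adjusted p under 0.05. *Arrb2* is filled throughout, *Grk5* is open only under one-way analysis of variance, *Adra1b* is open in 3 settings and *Arrb1* in all.

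Differences between family members were compared directly within each array, in 2 comparisons. *Grk5* minus the mean of *Grk1*, *Grk3*, *Grk4* and *Grk6* was 0.83, 0.49 and 0.38 on the OE arrays, against -0.68, -0.92 and -0.35 on the CTRL arrays, so the log2 change of *Grk5* exceeded that of the other kinases by 1.22. *Arrb2* minus *Arrb1* was 0.03, 0.16 and 0.15 in OE, against -0.01, -0.20 and -0.26 in CTRL, a difference of 0.27 in log2 change. The exact permutation test gave p = 0.1 for both, two-sided and also after adjustment over the 2 comparisons, which is the smallest value that 3 against 3 arrays can give. Neither difference can therefore pass 0.05 under this test, whatever its size, so its p does not decide whether they differ. No other test was run on these differences. Both were formed within an array and do not depend on how the arrays were scaled. The values hold no level, so whether the other kinases were above background in ventricles is not known, and *Grk2* was not among them.

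The kinases and receptors of the same families that were not among the 9 genes gave a background for these changes. Of 4 measured adrenergic and muscarinic receptors on a list of 8, none was called by limma or by one-way analysis of variance, with a median log2 change of -0.14, and at an unadjusted p under 0.05 by limma 2 were lower. *Chrm1*, a Gq-coupled muscarinic receptor, changed by -0.21 with an adjusted p of 0.0812, and *Adra2c*, a Gi-coupled adrenergic receptor, by -0.18 with an adjusted p of 0.110. Taking the probe set of largest variance for each gene brought both past the threshold, at log2 changes of -0.33 and -0.35 with adjusted p of 0.0482 and 0.0244, and centring on ribosomal protein genes called all 4 receptors lower. *Chrm3* and *Chrm4*, named after their values were seen, changed by -0.09 and -0.11.

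Of 10 further GRKs and arrestins, all measured, 2 were called lower and none higher by limma, nor by one-way analysis of variance, and none was higher at an unadjusted p under 0.05. The median log2 change was -0.07. The 4 other GRKs, named here after their values were seen, overlapped between the groups. *Grk6*, the ubiquitous relative of *Grk5*, changed by -0.08 (95% interval -0.24 to 0.08), and *Grk3*, the close relative of *Grk2*, by 0.17 (-0.21 to 0.55). *Grk4* changed by -0.02 (-0.24 to 0.20) and *Grk1*, the kinase of retinal rods, by -0.17 (-0.43 to 0.09). These intervals lie below the 0.77 at which the interval of *Grk5* begins.

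*Sag*, the arrestin of retinal rods, was lower, at -0.14, -0.27 and -0.30 in OE, against 0.14, 0.28 and 0.33 in CTRL. Its log2 change was -0.49 with an SE of 0.08 and an adjusted p of 0.00453 (limma). The values hold no level, so whether *Sag* was above background in ventricles is not known. *Arrdc1*, an α-arrestin that recruits ubiquitin ligases, changed by -0.25 with an adjusted p of 0.0292, and this call was lost on leaving out any array but OE replicate 3, with adjusted p of 0.0521 to 0.0875. The α-arrestins *Arrdc2* and *Arrdc3* were not called, at log2 changes of -0.53 and 0.39 with adjusted p of 0.295 and 0.375, and spread widely within groups. Leaving out CTRL replicate 3, which lay at -0.47 beside 0.70 and 0.84 in the other CTRL arrays, gave *Arrdc2* a log2 change of -0.94 with an adjusted p of 0.0238. Centred on ribosomal protein genes, 6 of the 10 genes were called lower.

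**Figure D3:**
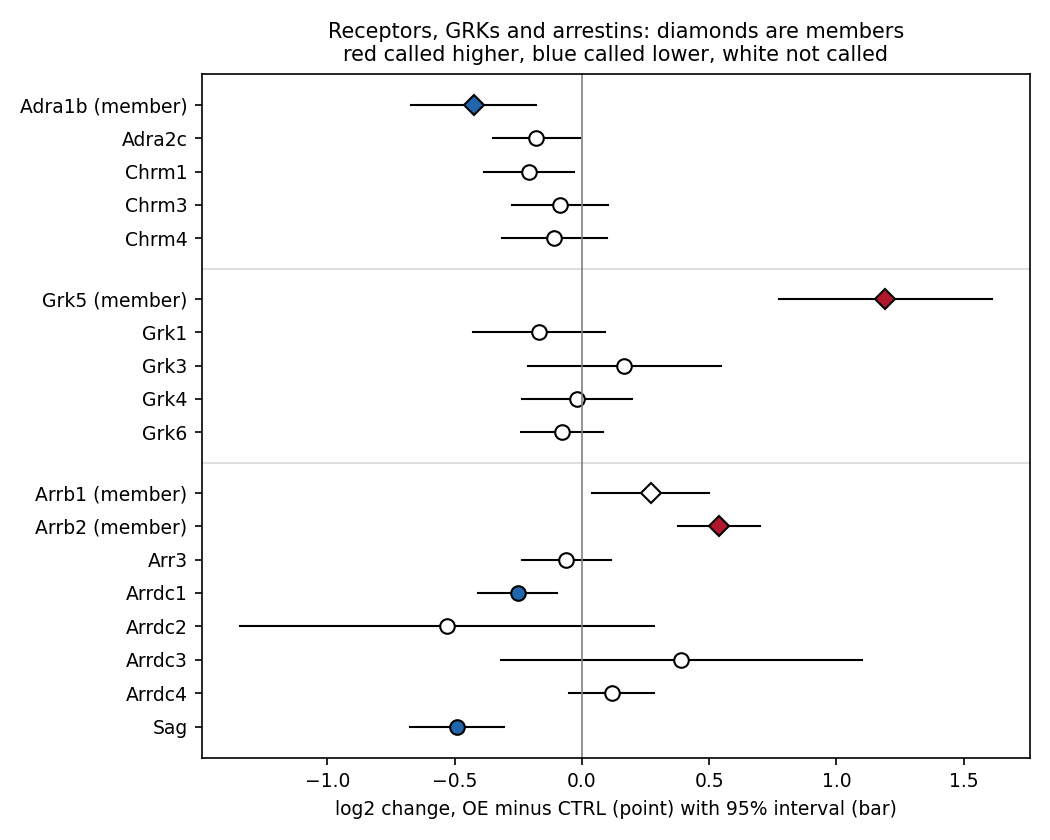
Log2 change, OE minus CTRL, with its 95% interval for the measured receptors, GRKs and arrestins, the 4 genes of the group as diamonds and their relatives as circles, red where called higher, blue where called lower and white where not called. *Grk5* at 1.19 lies to the right of the 4 other kinases, which range from -0.17 to 0.17.

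Genes listed for receptor trafficking and anchoring were often higher in OE, and a link of these calls to arrestin binding was not tested. Of 17 measured genes of receptor trafficking and anchoring (19 listed), 11 were called higher and none lower by limma, against 14.9% and 11.8% of all genes. The median log2 change was 0.32 against -0.03 over all genes. One-way analysis of variance called 8 higher and none lower, and by limma none was lower at an unadjusted p under 0.05. *Rab4a*, a small GTPase of fast recycling from endosomes to the membrane, was at 0.68, 0.89 and 0.26 in OE, against -0.38, -0.51 and -0.33 in CTRL, a 2.02-fold higher level with an adjusted p of 0.00305. *Ap2s1*, the small subunit of the clathrin adaptor that binds β-arrestins, had a log2 change of 0.52 with an SE of 0.08 and an adjusted p of 0.00292. *Sorbs2*, a cytoskeletal adaptor, had a log2 change of 0.56 with an adjusted p of 0.00390, though only 1 of its 4 probe sets was called. Other calls of the list also varied by probe set, in genes named here after their values were seen. *Rab5a* and *Cltc* were called as genes with no probe set called. *Usp20* had 1 of its 4 probe sets called higher and 1 called lower. *Ap2a1*, another adaptor subunit, changed by 0.20 with an adjusted p of 0.0688, and the scaffold *Dlg1* by -0.13 with an adjusted p of 0.165. The calls of this list depended on the scaling: centred on ribosomal protein genes, 3 of the 17 were called higher and 3 lower, where all genes gave 7.04% and 51.7%, and the median was 0.10 against -0.26 over all genes.

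The G protein subunits were mixed. For this list and those below, the shares of all genes called by limma were 14.9% higher and 11.8% lower. Of 27 measured (28 listed), 7 were called higher and 5 lower, with a median of 0.01. *Gng10*, a γ subunit, was 1.97-fold higher, at 0.44, 0.52 and 0.47 in OE, against -0.48, -0.58 and -0.44 in CTRL, with an adjusted p of 0.000217. *Gng8*, another γ subunit, had a log2 change of 0.76 with an adjusted p of 0.0116 and did not pass under one-way analysis of variance. *Gnb3*, a β subunit, and *Gna12*, the α subunit of G12, went the other way, with log2 changes of -0.71 and -0.43 and adjusted p of 0.00201 and 0.00283.

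The α subunits that couple the receptors themselves changed by less than 1.5-fold. They are named here after their values were seen. *Gnaq*, the Gq subunit downstream of α1-adrenergic receptors, changed by 0.01 (95% interval -0.13 to 0.15). *Gnas*, the Gs subunit downstream of β-adrenergic receptors, changed by -0.27 with an adjusted p of 0.0170, but 1 of its 5 probe sets was called, and the adjusted p was 0.0544 without OE replicate 2 and 0.0530 without CTRL replicate 1. *Gnai2*, the Gi subunit downstream of muscarinic receptors, changed by 0.17 with an adjusted p of 0.0843, and *Gnai3*, a related Gi subunit, by 0.37 with an adjusted p of 0.00917, a call that was lost when centred on ribosomal protein genes. After centring on ribosomal protein genes, 4 G protein genes were called higher and 12 lower.

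Regulators that end or modify the G protein signal included large changes in both directions. Of 23 measured, 5 were called higher and 6 lower, with a median of -0.12, and under one-way analysis of variance 1 was higher and 3 lower. *Gpsm1* was the gene of the list that changed most, at -0.63, -0.60 and -0.78 in OE, against 0.59, 0.74 and 1.01 in CTRL. It was 2.74-fold lower with an adjusted p of 0.000293, and all 3 of its probe sets were called lower. *Gpsm1* does not speed up GTP hydrolysis as the RGS proteins do, but holds Gαi in its GDP-bound form.

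*Rgs19*, which acts on Gαi, had a log2 change of 0.96 with an SE of 0.17 and an adjusted p of 0.00610. *Rgs10*, which is abundant in immune cells, had a log2 change of 0.84 with an SE of 0.21 and an adjusted p of 0.0212. Neither passed under one-way analysis of variance, and *Rgs10* also did not without OE replicate 1 (adjusted p 0.0709) or OE replicate 3 (0.0641). Of the genes called lower, *Rgs5*, which is also a pericyte marker, had a log2 change of -0.71 with an adjusted p of 0.00104, here named after its value was seen. With ribosomal protein genes as the centre, 2 genes were called higher and 13 lower.

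Among protein kinase A (PKA), its anchors and the cAMP-binding proteins, 7 of 27 measured genes (29 listed) were called higher and 5 lower, with a median of 0.02. The catalytic subunits *Prkaca* and *Prkacb*, named after their values were seen, changed by 0.04 and -0.04 with adjusted p of 0.714 and 0.703. The regulatory subunits, likewise named after their values were seen, were mixed. *Prkar1a* and *Prkar1b* were called higher, with log2 changes of 0.46 and 0.48 and adjusted p of 0.00564 and 0.00625. *Prkar2a* was called lower, with a log2 change of -0.30 and an adjusted p of 0.0132, which was 0.0511 without OE replicate 1. The call of *Prkar1a* was lost when centred on ribosomal protein genes and that of *Prkar1b* without probe sets of suffix _x_at or _s_at. *Popdc2* and *Popdc3*, which bind cAMP at the membrane of muscle cells, had log2 changes of 0.83 and 0.86 with adjusted p of 0.00116 and 0.00456, and the call of *Popdc3* was lost under one-way analysis of variance. *Akap2*, an A-kinase anchor, had a log2 change of 0.78 with an SE of 0.07 and an adjusted p of 0.000519.

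*Pkia*, the PKA inhibitor peptide, was lower, at -0.29, -0.18 and -0.41 in OE, against 0.48, 0.32 and 0.24 in CTRL. Its log2 change was -0.64 with an adjusted p of 0.00246. *Rapgef3*, the cAMP-activated exchange factor Epac1, had a log2 change of -0.64 with an SE of 0.08 and an adjusted p of 0.00127, and all 5 of its probe sets were called lower. Centred on ribosomal protein genes, 5 genes of the list were called higher and 13 lower.

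Of 23 measured effectors of Gq (26 listed), 2 were called higher and 7 lower, with a median of -0.21. *Prkcd*, protein kinase Cδ, was at 0.24, 0.23 and 0.44 in OE, against -0.30, -0.32 and -0.32 in CTRL, a log2 change of 0.62 with an SE of 0.08 and an adjusted p of 0.00157. The other calls of this list were fragile: under one-way analysis of variance 1 was called higher and none lower, and limma called 1 to 4 lower when single arrays were left out. *Dgke*, a diacylglycerol kinase, changed by -0.47 with an adjusted p of 0.0227, which was 0.0593 to 0.0707 without OE replicate 1, OE replicate 2, CTRL replicate 1 or CTRL replicate 2. *Plcb2*, a phospholipase C of immune cells, changed by -0.44 with an adjusted p of 0.0198, which was 0.0521 to 0.0706 without OE replicate 1, OE replicate 3, CTRL replicate 1 or CTRL replicate 3. Against the majority, *Plce1*, phospholipase Cε, changed by 0.38 with an adjusted p of 0.0399, which was 0.0508 to 0.125 without any array but CTRL replicate 3.

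Acetylcholine slows the atria and the nodes through a potassium channel gated by Gi. Of 4 measured subunit genes of this class of channel, not all of them cardiac, none was called by limma or by one-way analysis of variance. At an unadjusted p under 0.05 by limma, 2 were lower. Their median log2 change was -0.18. *Kcnj5* changed by -0.26 with an adjusted p of 0.0744, and by -0.33 with an adjusted p of 0.0479 without CTRL replicate 2. *Kcnj6* changed by -0.18 with an adjusted p of 0.0929. With ribosomal protein genes as the centre, 3 of the 4 were called lower.

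**Figure D4:**
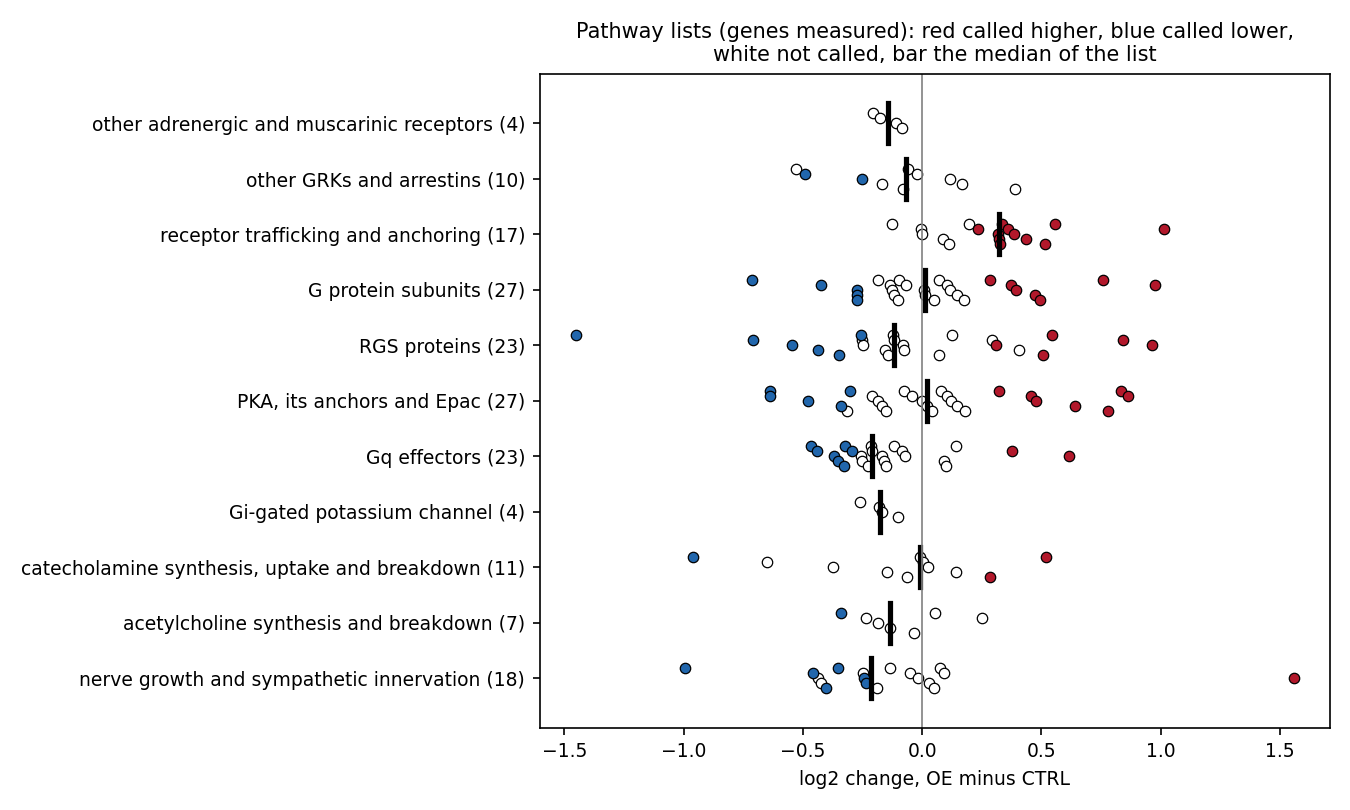
Log2 change, OE minus CTRL, of each measured gene in 11 lists around receptor signalling, red where called higher, blue where called lower and white where not called, with a black bar at the median of each list. The bar of receptor trafficking and anchoring stands at 0.32 and those of the other 10 lists lie between -0.21 and 0.02.

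Transmitter handling showed 1 large change, in breakdown. Of 11 measured genes of catecholamine synthesis, uptake and breakdown (14 listed), 2 were called higher and 1 lower, with a median of -0.01. *Maob*, a monoamine oxidase of the outer mitochondrial membrane, was at -0.28, -0.62 and -0.49 in OE, against 0.72, 0.49 and 0.28 in CTRL. It was 1.95-fold lower with an adjusted p of 0.00198. *Maoa*, the other monoamine oxidase, was at -0.07, 0.34 and 0.39 in OE, against -0.57, -0.27 and -0.06 in CTRL, so the groups overlapped, and its log2 change of 0.52 had an adjusted p of 0.0467. That call was lost under one-way analysis of variance and, with adjusted p of 0.0976 to 0.133, without OE replicate 2, OE replicate 3, CTRL replicate 1 or CTRL replicate 2.

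*Pnmt*, which makes adrenaline from noradrenaline, changed by 0.28 with an adjusted p of 0.0354, with 1 of its 3 probe sets called higher and 1 lower. Without OE replicate 1, OE replicate 3, CTRL replicate 2 or CTRL replicate 3 its adjusted p was 0.0741 to 0.113. *Ddc*, the decarboxylase that makes dopamine, changed by -0.65 with an adjusted p of 0.0658, and by -0.89 with an adjusted p of 0.0104 without CTRL replicate 3. Of 7 genes of acetylcholine synthesis and breakdown, 1 was called lower, none was higher even at an unadjusted p under 0.05 (limma), and the median was -0.13. The gene called was *Chat*, choline acetyltransferase, with a log2 change of -0.34, an SE of 0.07 and an adjusted p of 0.0102. *Bche*, butyrylcholinesterase, changed by 0.25 with an adjusted p of 0.133. Centred on ribosomal protein genes, 4 catecholamine and 4 acetylcholine genes were called lower and none higher.

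Of 18 measured genes of nerve growth and sympathetic innervation (22 listed), 1 was called higher and 6 lower, with a median of -0.21. *Nrtn*, neurturin, a growth factor of parasympathetic neurons, was at 1.01, 0.57 and 1.06 in OE, against -0.77, -0.69 and -0.57 in CTRL. It was 2.94-fold higher with an adjusted p of 0.000414. *Bdnf*, a neurotrophin, was at -0.88, -0.26 and -0.56 in OE, against 0.26, 0.32 and 0.70 in CTRL, a log2 change of -0.996 with an adjusted p of 0.00590 that was lost under one-way analysis of variance. *Gfra1*, the receptor subunit for GDNF, had a log2 change of -0.46 with an adjusted p of 0.00855. *Nrp1*, a receptor for semaphorins, changed by -0.44 with an adjusted p of 0.0619, and by -0.55 with an adjusted p of 0.0431 without CTRL replicate 1. Over all 11 lists, 35 of 171 measured genes were called higher and 33 lower, which is 39.8%, against 26.7% of all genes. After centring on ribosomal protein genes, 1 nerve growth gene was called higher and 13 lower.

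Markers of other cell types moved with the groups. The counts are to be read against all genes, with 14.9% higher and 11.8% lower by limma, and 7.9% and 6.18% by one-way analysis of variance. Of 18 macrophage markers, 8 were called higher, and 1 under one-way analysis of variance, with per-array list means of 0.06 to 0.36 in OE and -0.38 to -0.07 in CTRL. Of 16 fibroblast markers, 8 were called higher and 3 lower, and 5 and 2 under one-way analysis of variance, with list means of 0.17 to 0.31 in OE and -0.50 to -0.18 in CTRL. Of 17 measured endothelial markers, 8 were called lower, and 2 under one-way analysis of variance, with list means of -0.19 to 0.02 in OE and 0.14 to 0.25 in CTRL. Of 20 cardiomyocyte markers, 2 were called higher and 11 lower, and 0 and 8 under one-way analysis of variance, with cardiomyocyte list means of -0.20 to -0.17 in OE and 0.12 to 0.21 in CTRL. Of 9 measured atrial markers, 5 were called higher and 1 lower, and 3 and 0 under one-way analysis of variance, with list means of 0.31 to 0.54 in OE and -0.33 to -0.29 in CTRL. Of 15 neuronal markers 2 were called higher and 3 lower, of 14 smooth muscle and pericyte markers 7 and 7, of 7 Schwann cell markers 2 and 2, and of 10 adipocyte markers 1 was called lower. Of 10 lymphocyte markers none was called by limma or one-way analysis of variance, and 2 were lower at an unadjusted p under 0.05 by limma. Centring on ribosomal protein genes gave 5 higher and 2 lower for macrophage, 8 and 3 for fibroblast and 5 and 1 for atrial markers. It gave 0 and 13 for endothelial, 0 and 14 for cardiomyocyte, 1 and 8 for neuronal, and 6 and 7 for smooth muscle and pericyte markers. All genes gave 7.04% and 51.7% under that centring. The list means of all OE arrays lay above those of all CTRL arrays, the direction of *Grk5* and *Arrb2*, for the macrophage, fibroblast, atrial, smooth muscle and pericyte, and neuronal lists. For the neuronal list the median log2 change was -0.003 and the highest 2.15. For the smooth muscle and pericyte list, called equally often in both directions, the median was 0.06 and the highest 4.94. The means of these lists thus do not give the direction of most of their markers. List means lay below, the direction of *Adra1b*, for the cardiomyocyte and endothelial lists. The part of any of these cell types in the changes of *Adra1b*, *Grk5* and *Arrb2* was not tested.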

How the data were processed

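RNA of whole ventricles from 3 OE and 3 CTRL mice was hybridised to Affymetrix mouse arrays, 1 per mouse. The authors processed them in GeneSpring GX with RMA summarization (version not given in the sources used here), quantile normalization and a baseline at the median of all samples. The deposited log2 values are thus relative to each probe set's median and hold no level; the log base is not stated and was taken as 2, and values run from -4.29 to 3.54. Of 45101 probe sets, 64 were array controls, 932 had several gene symbols and 9211 had no gene here (with some overlap), leaving 34945 probe sets of 18193 genes. A gene's value was the mean of its probe sets.

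OE was compared with CTRL by limma 3.58.1 (R 4.3.3) over all genes, with Benjamini-Hochberg adjustment and a two-sided threshold of 0.05 (called). Probe sets were tested likewise over 45037 probe sets. The fit was tested on simulated data. Differences between genes used the exact permutation test (scipy 1.17.1). No filter on dim probe sets could be set and no batch is given in the sources used here. The number of arrays, 3 per group, limits the precision.

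Results were recomputed with array weights, with one-way analysis of variance per gene, with arrays centred on ribosomal protein genes or on the median, a replicate block, leaving out each array, leaving out probe sets with suffix _x_at or _s_at, the probe set of largest variance, and fold limits of 1.2 and 1.5. Replicate numbers did not pair the mice.

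The genes and lists were chosen with earlier results of these data known. Named were the 9 genes of the group; from each of 11 lists up to 3 called genes with the largest change and up to 2 not called or against the majority; *Nr2f2*; and for *Grk5* and *Adra1b* the 3 genes of highest correlation. Genes outside the rule are marked in the text. RefSeq promoter windows were from GRCm38.p6. *Arrb1* and *Arrb2* had no window there and so could not be searched.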

Additional observations from a re-analysis of the deposited data

How the results depend on the processing

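Over 13 alternatives for each of the 4 measured genes, 48 of 52 results kept their direction and side of the threshold, 4 lost the call and 0 changed direction; for the probe sets, 53 of 66 did so and 13 lost the call. The 2 genes called higher became 1 under one-way analysis of variance and 1 past 1.5-fold. The 1 gene called lower became 0 under one-way analysis of variance, 0 past 1.5-fold, and 0 to 1 when single arrays were left out, with OE replicate 3 and CTRL replicate 1 deciding it. Across the lists, the 35 genes called higher became 21 under one-way analysis of variance, 16 when centred on ribosomal protein genes and 11 past 1.5-fold. The 33 called lower became 17, 92 and 7 under the same 3 settings, and 16 to 27 when single arrays were left out. Over all genes, 4861 calls became 2562 under one-way analysis of variance, 10680 when centred on ribosomal protein genes and 3073 without OE replicate 1. Relative to the median of all genes, which moves with the centring, the log2 changes were -0.39 for *Adra1b*, 1.22 for *Grk5*, 0.30 for *Arrb1* and 0.57 for *Arrb2* as reported. The cause of these differences was not tested.

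Deviations from the group mean correlated at -0.12 to 0.07 between OE and CTRL arrays of the same replicate number and at -0.11 to 0.08 between those of different number, so the numbers gave no pairing. The replicate block changed no call of the 4 genes, with adjusted p of 0.0251 for *Adra1b*, 0.00989 for *Grk5*, 0.109 for *Arrb1* and 0.00706 for *Arrb2*, and gave 33 genes higher and 22 lower across the lists. With values relative to a median, signal over background is not known.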

Other observations

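Genes whose pattern over the 6 arrays was most like that of *Grk5* were *Aggf1*, *Glb1* and *Cavin3*, with Pearson's r of 0.997, 0.996 and 0.996, and log2 changes of 0.28, 0.69 and 0.65. Those most like *Adra1b* were *Olig1*, *4833439L19Rik* and *Mdfi*, with r of 0.997, 0.996 and 0.996, and log2 changes of -0.37, -0.30 and -0.29. These were the 3 highest r among 18192 genes for each. The 6 points share the difference between OE and CTRL, and 1551 genes had an r above 0.9 with *Grk5* and 876 with *Adra1b*, so the values describe likeness only.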
